A study of Mus musculus with 2 samples.

Results

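Proteasome subunit genes were described in mouse embryonic stem cells (ESCs) as the rows whose symbol starts with Psma, Psmb, Psmc, Psmd, Psme, Psmf or Psmg followed by a number. The pattern gave 48 genes of the 24532 rows in the table, and 45 of them were among the 9094 genes with a TPM, a transcript abundance scaled to gene length and library, of at least 10 in at least 1 library. The libraries were 1 of E14, an established wild-type mouse ESC line, and 1 of Sox2 T258A cells, an E14 clone in which the threonine at position 258 of 1 Sox2 allele was changed to alanine by CRISPR-Cas9. Sox2 is a core pluripotency transcription factor, and the study asked what losing a sugar modification (O-GlcNAc) at this residue does to ESCs. By the study's methods, E14 was grown in serum with leukemia inhibitory factor, whereas the clone was ordinarily kept with added Mek and Gsk3 inhibitors that were withdrawn before use. The libraries so differ in genotype, in clone and in how the cells had been kept, and these cannot be told apart.

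The proteasome degrades proteins tagged with ubiquitin. Its 20S core is a barrel of stacked rings, with alpha subunits forming the gated outer rings and beta subunits the inner rings that hold the proteolytic sites. The 19S regulatory particle caps the barrel: its base of ATPases unfolds the substrate, and its lid removes the ubiquitin chain. Other caps, the Psme activators, open the gate without ATP hydrolysis, and dedicated chaperones assemble the rings and the base. ESCs are known for high proteasome activity, and cells exposed to interferon exchange the catalytic beta subunits for inducible ones that favour peptides for antigen presentation.

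The table held 60263536 reads in E14 and 44609228 reads in Sox2 T258A cells, and proteasome genes took 0.791% (95% Wilson interval 0.789 to 0.794) and 0.754% (0.751 to 0.757) of them. All 8 ESC markers examined passed the TPM filter, but 5 of the 8 were lower in Sox2 T258A cells, with a median log2 ratio of -0.33 and a sum of 11111 TPM in E14 and 8262 TPM in Sox2 T258A cells. Dppa5a held most of both sums, at 6877 and 4429 TPM (-0.63), and Sox2 itself was at 373 and 274 TPM (-0.44). Pou5f1 was level at 1725 and 1759 TPM, whereas Nanog was past 2-fold lower at 527 and 251 TPM (-1.07). Ratios are the TPM in Sox2 T258A cells over that in E14, on the log2 scale and without a pseudocount. With 1 library per genotype there was no replicate check and no test, and counting error is all that the 95% intervals (exact Clopper-Pearson for single genes) and the 3-read floor include. In bulk RNA, fewer cells expressing a gene and less of its RNA per cell cannot be told apart.

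Proteasome genes were on the whole level between the libraries. None of the 45 was more than 2-fold higher in Sox2 T258A cells, beside 4.17% of all genes past the filter, and none was more than 2-fold lower, beside 4.07%. Past 1.5-fold, 2 members were higher, the activators Psme2 and Psme4 (4.44% of members, against 14.2% of all genes), and 1 was lower, the assembly chaperone Psmg4 (2.22% against 10.5%). The other 42 stayed within 1.5-fold. TPM was lower in 19 of 45 members (42.2%), close to the 42.7% of all genes. The counting interval lay wholly above no change in 22 members (48.9% against 50.2%) and wholly below it in 16 (35.6% against 35.3%), so these shares too were near the background. The median log2 ratio was 0.04 over members and 0.08 over all genes. The middle of the members' distribution was narrower, with an interquartile width of 0.47 against 0.62. Members were also more abundant, with a median of 226 TPM in E14 against 34.4 over all genes past the filter. Neither the shares nor the widths were matched for level. Of the 6 members farthest from no change (Psmg4, Psme2, Psme4, Psmd4, Psme1 and Psmf1), Psmd4 alone is one of the 31 constitutive subunits.

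**Figure D1:**
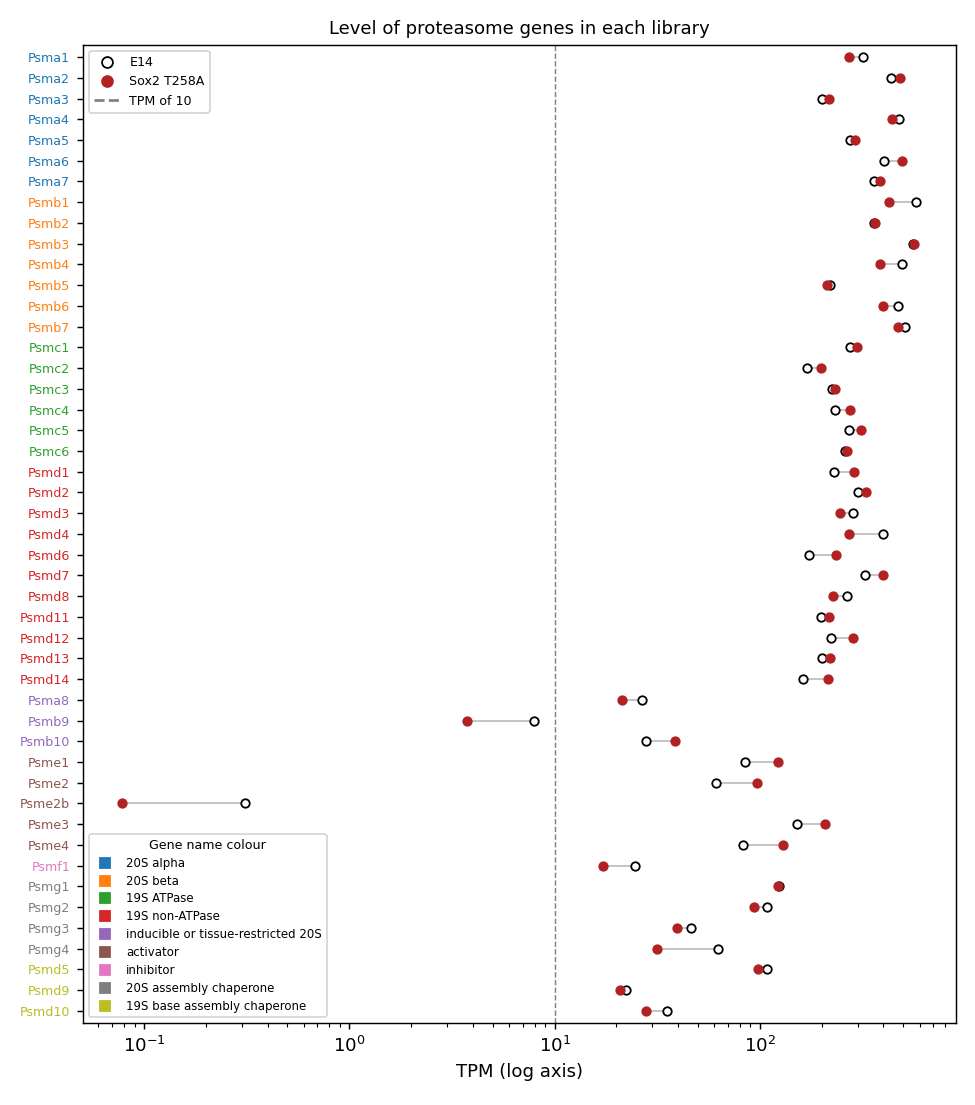
Level of 47 proteasome genes in E14 (open circles) and Sox2 T258A cells (filled circles), in TPM on a log axis, with gene names coloured by role. The constitutive subunits sit between 162 and 576 TPM in E14 and between 199 and 567 TPM in Sox2 T258A cells, above nearly all other members, and Psmb11, with no read in 1 library, is not drawn.

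The 31 constitutive subunits of the core and the regulatory particle that fit the symbol pattern summed to 9863 TPM in E14. In Sox2 T258A cells they summed to 9922 TPM, a log2 ratio of 0.01 (0.00 to 0.02). This near-equality depended on scaling, since the sum's ratio was negative with FPKM (fragments per kilobase, scaled to the library), TMM, median-of-ratios, median-centred values and without the 10 highest genes, and positive with length or GC and length trends removed. All 31 were within 1.5-fold, with 21 higher and 10 lower. Of the 9094 genes past the filter, 5214 were higher and 3880 lower. Their order by TPM was largely kept, with a Spearman rho of 0.886 and a Pearson r of log2 TPM of 0.889 over the 31 genes, which share library and depth and are not independent. The highest constitutive subunit was 3.56 times the lowest in E14 and 2.84 times in Sox2 T258A cells.

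In TPM the core and the regulatory particle differed in direction, which did not hold under every scaling. The 14 constitutive core genes summed to 5663 TPM in E14 and 5407 TPM in Sox2 T258A cells (log2 ratio -0.07, interval -0.08 to -0.06). The 17 regulatory particle genes went from 4200 to 4516 TPM (0.10, 0.10 to 0.11). The core sum exceeded the regulatory sum in both libraries, by a smaller margin in Sox2 T258A cells. Within the core, 7 genes were higher and 7 lower, whereas in the regulatory particle 14 were higher and 3 lower, a count that became 8 and 9 with FPKM. In TPM, 42.7% of all genes past the filter were lower. With FPKM both sums were lower (-0.21 for the core and -0.04 for the regulatory particle), and with the length trend removed both were higher (0.20 and 0.24), as they were with GC and length trends removed (0.094 and 0.19). The core's ratio was below that of the regulatory particle under TPM and each of the 7 other scalings. All of these but the trend removals move every gene nearly alike, so they could not change the gap between the sums. With the trends removed the gap was smaller. Core transcripts were also shorter, with a median of 1162.5 bases against 1636, and the part of length in the gap was not tested.

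Among the 7 alpha genes, which form the outer rings and the gate, 5 were higher and 2 lower, and all 7 counting intervals excluded no change. Over all genes past the filter, 42.7% were lower, and intervals lay wholly above no change in 50.2% and wholly below in 35.3%. Psma6 had 12718 reads and 405 TPM in E14 and 10389 reads and 494 TPM in Sox2 T258A cells, the highest ratio of the group (0.29, 0.25 to 0.32). Psma1 had 12605 reads and 319 TPM in E14 and 7177 reads and 271 TPM in Sox2 T258A cells, the lowest (-0.23, -0.28 to -0.19). Subunits of the same ring thus differed in opposite directions, although Psma1 came to -0.035 with the length trend removed, while Psma6 ranged from 0.14 to 0.59 over the 7 other scalings. Psma2 (0.14), Psma3 (0.11), Psma7 (0.09) and Psma5 (0.08) were slightly higher and Psma4 (-0.11) slightly lower. These 5 small ratios turned sign under at least 1 scaling: Psma2, Psma3, Psma5 and Psma7 with FPKM, Psma2 also with GC and length trends removed, and Psma4 with the length trend removed.

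The 7 constitutive beta genes leaned the other way in TPM, with 2 higher and 5 lower, a median of -0.11, and a sum that went from 3189 to 2827 TPM (-0.17, -0.19 to -0.16). That median became positive with the length trend removed (0.20) or GC and length trends removed (0.12). In TPM, 42.7% of all genes past the filter were lower. Psmb1, a structural beta subunit, had 18784 reads and 576 TPM in E14, the highest level of any member there, and 9324 reads and 426 TPM in Sox2 T258A cells. Its ratio of -0.43 (-0.47 to -0.40) was the lowest of the beta genes and stayed negative under all 7 other scalings, between -0.58 and -0.22. Scalings other than the trend removals move all genes nearly alike, FPKM most at -0.14, so they could not turn ratios of this size. The same holds below for ratios at least as large in size. Psmb4, another structural subunit, came next, at 494 and 387 TPM (-0.35), but shrank to -0.044 with the length trend removed and -0.10 with GC and length trends removed. Psmb3 marked the upper end with 12826 reads and 557 TPM in E14 and 8741 reads and 567 TPM in Sox2 T258A cells (0.02, -0.02 to 0.06), a difference within counting error. Psmb2 (0.02) and Psmb5 (-0.05) also had intervals that spanned no change, and Psmb2 and Psmb3 turned negative with FPKM, TMM, median-of-ratios or median-centred values.

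The proteolytic sites are carried by Psmb5, Psmb6 and Psmb7. Psmb6, with caspase-like activity, had 15343 reads and 470 TPM in E14 and 8675 reads and 397 TPM in Sox2 T258A cells (-0.24, -0.28 to -0.21), a direction that turned with GC and length trends removed. Psmb7, with trypsin-like activity, had 15610 reads and 511 TPM in E14 and 9675 reads and 473 TPM in Sox2 T258A cells (-0.11, -0.15 to -0.08). Psmb5, with chymotrypsin-like activity, had 6037 reads and 220 TPM in E14 and 3902 reads and 212 TPM in Sox2 T258A cells (-0.05, -0.11 to 0.01). All 3 were thus slightly lower in TPM, and Psmb5 and Psmb7 turned sign under both trend removals. Psmb5 was the least abundant beta gene in each library, below its catalytic partners.

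The inducible counterparts of Psmb6 and Psmb7 differed in opposite directions. Psmb9, which replaces Psmb6 in the immunoproteasome, had 202 reads and 7.92 TPM in E14 and 64 reads and 3.74 TPM in Sox2 T258A cells (-1.08, -1.51 to -0.67), under the filter in both. It made up 1.66% (1.45 to 1.90) of the summed Psmb6 and Psmb9 TPM in E14 and 0.934% (0.732 to 1.19) in Sox2 T258A cells. Psmb10, which replaces Psmb7, had 1117 reads and 27.9 TPM in E14 and 1041 reads and 38.8 TPM in Sox2 T258A cells (0.48, 0.35 to 0.60). Its share of the Psmb7 and Psmb10 sum was 5.18% (4.89 to 5.48) in E14 and 7.58% (7.15 to 8.05) in Sox2 T258A cells. The difference of log2 ratios within a pair was -0.84 (-1.25 to -0.43) for Psmb9 against Psmb6 and 0.59 (0.46 to 0.72) for Psmb10 against Psmb7. Both inducible genes kept their direction under the 7 other scalings, Psmb9 between -1.23 and -0.75 and Psmb10 between 0.33 and 0.83. The scalings other than the trend removals could not turn ratios of this size. In both libraries the constitutive gene of each pair far exceeded the inducible one.

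Psmb9 lies on chromosome 17 with 225 bases between it and Tap1, the gene of a peptide transporter subunit that loads antigenic peptides. Tap1 had 1488 reads and 16.0 TPM in E14 and 593 reads and 9.54 TPM in Sox2 T258A cells (-0.75), so both genes of this neighbouring pair were lower in Sox2 T258A cells. The 250 bases before the Psmb9 start span the whole stretch between them and are shown for that reason (RefSeq, GRCm38.p6). The capitals mark a CCAAT match, read on the other strand as ATTGG.
Psmb9, chr17:34187331-34187580, minus strand: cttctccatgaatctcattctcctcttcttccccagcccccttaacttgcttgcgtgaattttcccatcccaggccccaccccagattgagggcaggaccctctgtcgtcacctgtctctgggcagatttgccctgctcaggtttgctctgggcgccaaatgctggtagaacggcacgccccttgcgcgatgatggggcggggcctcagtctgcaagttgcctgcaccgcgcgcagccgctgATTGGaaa

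Markers of blood and immune cells were lower together with Psmb9, whereas fibroblast markers were mixed. A list of 6 blood and immune genes summed to 81.1 TPM in E14 and 24.4 TPM in Sox2 T258A cells, and its 4 detected genes were all lower, while Ptprc and Lyz2 had 0 reads in both. A list of 5 fibroblast genes summed to 43.1 and 16.6 TPM, a difference carried by Thy1 at 40.1 and 11.4 TPM. Col3a1 (15 and 151 reads, 4.0), Col1a2 (43 and 109 reads, 1.93) and Col1a1 (0.15) were higher, all under 3 TPM, and Postn had 0 reads in both. Neither the presence of such cells in the cultures nor a part of theirs in the lower Psmb9 level was tested.

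The remaining tissue-restricted core genes were below every constitutive subunit in both libraries, and of them only Psma8 passed the filter. Psma8, the testis counterpart of Psma7, had 1430 reads and 26.8 TPM in E14 and 765 reads and 21.4 TPM in Sox2 T258A cells (-0.33, -0.45 to -0.20). It was 6.90% of the Psma7 and Psma8 sum in E14 and 5.25% in Sox2 T258A cells, a difference of log2 ratios of -0.42 (-0.55 to -0.29). Psmb11, the thymus-specific beta gene, had 3 reads in E14 and 0 in Sox2 T258A cells, at or under the floor of 3 reads (0.0498 and 0.0673 CPM, reads scaled to the library), and no ratio was formed.

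The 6 ATPase genes of the 19S base were all higher in TPM in Sox2 T258A cells, though Psmc1, Psmc3 and Psmc6 turned with FPKM and other scalings, and 4 of their intervals excluded no change (median 0.15). Of all genes past the filter, 42.7% were lower, and 50.2% had intervals wholly above no change. Psmc4 marked the upper end with 10491 reads and 232 TPM in E14 and 8331 reads and 275 TPM in Sox2 T258A cells (0.24, 0.20 to 0.29). Psmc6 marked the lower end with 12798 reads and 260 TPM in E14 and 8734 reads and 265 TPM in Sox2 T258A cells (0.03, -0.01 to 0.07). Psmc2 (0.23), Psmc5 (0.19), Psmc1 (0.12) and Psmc3 (0.04) lay between. Psmc3 and Psmc6 were also lower with TMM or centring on the median and Psmc6 with GC and length trends removed. The ATPases form a single heterohexameric ring, and their TPM was the most even of the 4 constitutive groups, with the highest 1.62 times the lowest in E14 and 1.56 times in Sox2 T258A cells.

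The 11 non-ATPase genes of the 19S particle that fit the pattern spread the most among the constitutive subunits, from -0.56 to 0.44. Of these, 8 were higher and 3 lower, and every interval excluded no change. Over all genes past the filter, 42.7% were lower, and intervals lay wholly above no change in 50.2% and wholly below in 35.3%. Psmd6, a lid scaffold subunit, had 7068 reads and 173 TPM in E14 and 6410 reads and 234 TPM in Sox2 T258A cells (0.44, 0.39 to 0.49). Psmd14, the deubiquitinase that cuts the chain from the substrate, followed at 162 and 215 TPM (0.41), and its dimer partner Psmd7 was at 326 and 401 TPM (0.30). The lid scaffold Psmd12 (0.36) and the base scaffold Psmd1 (0.33) were higher too. Psmd13 (0.13), Psmd11 (0.13) and the other base scaffold Psmd2 (0.14) were close to the median of all genes, and these last 3 turned negative with FPKM.

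Psmd4, a receptor for ubiquitin chains, stood at the other end. It had 16874 reads and 400 TPM in E14, the highest level of the 19S genes there, and 7686 reads and 272 TPM in Sox2 T258A cells (-0.56, -0.60 to -0.52). The ratio stayed negative under the 7 other scalings, between -0.70 and -0.20. The lid subunits Psmd8 (267 and 227 TPM, -0.23) and Psmd3 (285 and 245 TPM, -0.22) were the other lower genes, but with GC and length trends removed Psmd3 turned positive and Psmd8 came to -0.0088. In E14 Psmd4 was the most abundant 19S gene, whereas in Sox2 T258A cells Psmd7 was.

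**Figure D2:**
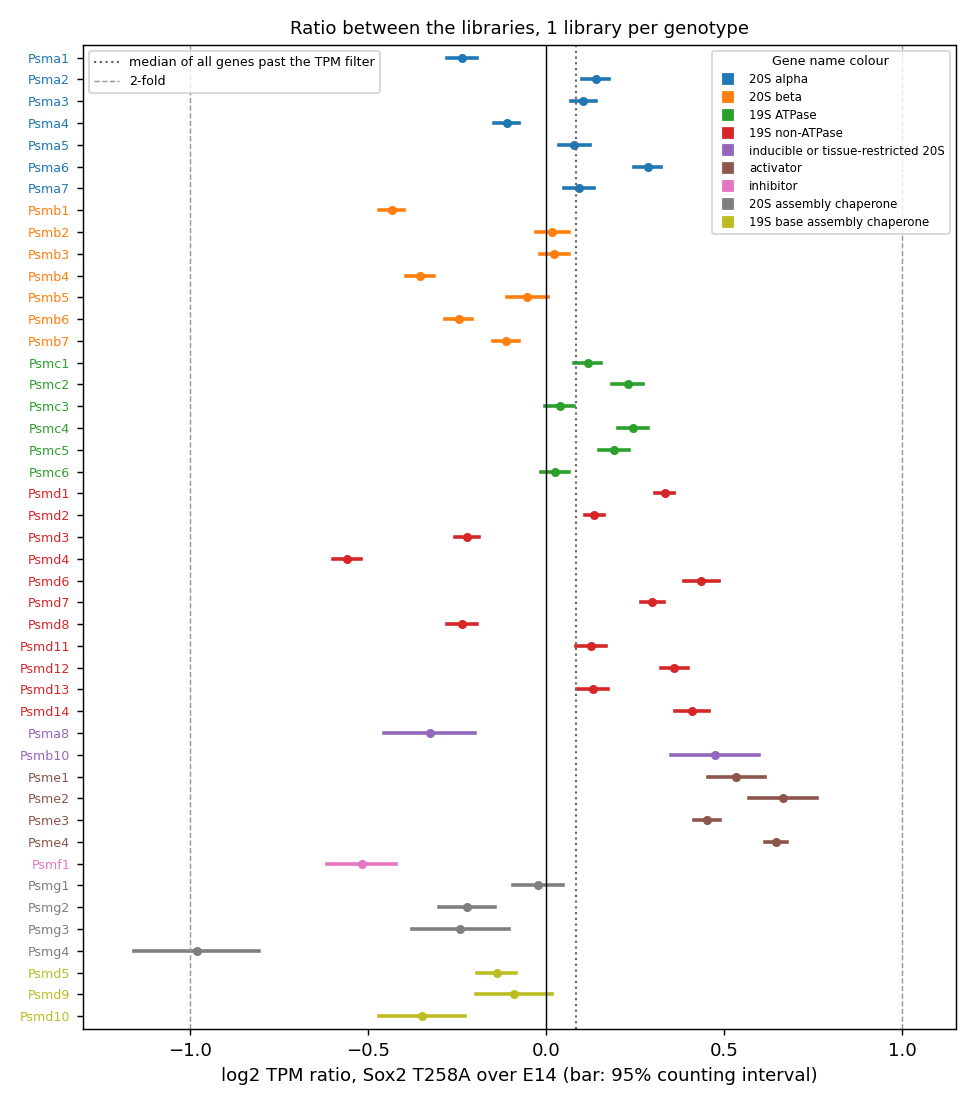
Log2 TPM ratio of Sox2 T258A cells over E14 for the 45 proteasome genes past the filter, with bars for the 95% counting interval and colours for role. The 4 activators lie between 0.45 and 0.67, the 7 assembly chaperones all lie below 0 in TPM (Psmg1 and Psmg3 not with trends removed), and no point passes the dashed 2-fold lines; 19 of the 45 genes change sign under at least 1 other scaling.

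The Psme activators were the group with the highest ratios. Psme1 and Psme2, which form a mixed ring that caps the core and is induced by interferon, were both higher. Psme1 had 2606 reads and 84.7 TPM in E14 and 2530 reads and 123 TPM in Sox2 T258A cells (0.53, 0.46 to 0.61). Psme2 had 1731 reads and 61.3 TPM in E14 and 1840 reads and 97.4 TPM in Sox2 T258A cells (0.67, 0.57 to 0.76), the highest ratio of any member. Their TPM ratio to each other, Psme1 over Psme2, was 1.38 in E14 and 1.26 in Sox2 T258A cells, so the pair stayed close (difference of log2 ratios -0.13, -0.26 to -0.01).

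The nuclear activators were higher as well. Psme4, the large single-chain activator linked to histone degradation, had 16895 reads and 83.3 TPM in E14 and 17725 reads and 130 TPM in Sox2 T258A cells (0.65, 0.62 to 0.68). Psme3, whose product forms a ring of identical subunits, had 12550 reads and 152 TPM in E14 and 11506 reads and 208 TPM in Sox2 T258A cells (0.45, 0.42 to 0.49). All 4 stayed higher under the 7 other scalings: Psme1 between 0.39 and 0.89, Psme2 between 0.52 and 0.98, Psme3 between 0.31 and 0.48, and Psme4 between 0.31 and 0.63. Together they summed to 381 TPM in E14 and 559 TPM in Sox2 T258A cells, 1.46-fold higher (0.55, 0.52 to 0.58 on the log2 scale). Set against the constitutive core sum, that was 6.74% in E14 and 10.3% in Sox2 T258A cells. Psme2 and Psme4 were at the 88.8 and 88.1 percentiles of the ratios of all genes past the filter, inside the bulk of that distribution.

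Psme2b, a near copy of Psme2 on another chromosome, had 11 reads and 0.310 TPM in E14 and 2 reads and 0.0784 TPM in Sox2 T258A cells (-1.98, -5.20 to 0.21), and no fold was drawn from it. Of the 75-base stretches of Psme2, 47.5% also occur in Psme2b, so their reads could be split, but the copy's reads were few beside those of Psme2. Psme1 and Psme2 lie 5912 bases apart on chromosome 14. The 250 bases before the Psme2 start are shown as those of the member with the highest ratio (RefSeq, GRCm38.p6), and no capitals appear because none of the 4 promoter motifs searched matched there.
Psme2, chr14:55591102-55591351, minus strand: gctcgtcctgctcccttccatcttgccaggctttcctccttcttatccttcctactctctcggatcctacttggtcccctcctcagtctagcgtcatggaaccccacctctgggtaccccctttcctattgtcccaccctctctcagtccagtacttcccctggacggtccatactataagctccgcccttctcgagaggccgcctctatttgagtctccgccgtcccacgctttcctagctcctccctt

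The genes usually grouped as interferon-induced thus did not share a direction. Psmb9, Psmb10, Psme1 and Psme2 summed to 182 TPM in E14 and 263 TPM in Sox2 T258A cells (0.53, 0.48 to 0.58), with Psmb10, Psme1 and Psme2 higher and Psmb9 lower.

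Psmf1, an inhibitor of the core in vitro, went against the activators. It had 2764 reads and 24.7 TPM in E14 and 1293 reads and 17.3 TPM in Sox2 T258A cells (-0.52, -0.61 to -0.42), and was lower under the 7 other scalings, between -0.66 and -0.53.

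All 7 assembly chaperones among the members were lower in TPM, although Psmg1 and Psmg3 became higher with either trend removal. Of their intervals, 5 of the 7 excluded no change. Among all genes past the filter, 42.7% were lower, and 35.3% had intervals wholly below no change. Together the 7 summed to 508 TPM in E14 and 434 TPM in Sox2 T258A cells (-0.23, -0.26 to -0.19). Pomp, a maturation factor of the core outside the symbol pattern, was higher at 306 and 360 TPM (0.24). Psmg4, which with Psmg3 guides alpha ring assembly, had 1052 reads and 62.5 TPM in E14 and 357 reads and 31.7 TPM in Sox2 T258A cells (-0.98, -1.16 to -0.81), the lowest ratio of the 45 members. Its interval reached past 2-fold, and the ratio stayed negative under the 7 other scalings, between -1.12 and -0.67. Its partner Psmg3 was at 46.4 and 39.3 TPM (-0.24), a smaller difference. Psmg1 had 4089 reads and 124 TPM in E14 and 2700 reads and 123 TPM in Sox2 T258A cells (-0.02, -0.09 to 0.05), and its partner Psmg2 was at 109 and 93.3 TPM (-0.22), which came to -0.0052 with the length trend removed. Within each pair the partners thus differed in size, more so for Psmg3 and Psmg4.

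The base chaperones were Psmd10, Psmd9 and Psmd5. Psmd10, also known as the oncoprotein gankyrin, had 1605 reads and 35.3 TPM in E14 and 850 reads and 27.8 TPM in Sox2 T258A cells (-0.35, -0.47 to -0.23). Psmd9 had 1815 reads and 22.2 TPM in E14 and 1144 reads and 20.9 TPM in Sox2 T258A cells (-0.09, -0.20 to 0.02), within counting error, and Psmd5 was at 108 and 98.3 TPM (-0.14). All 3 stayed lower under the 7 other scalings, Psmd10 between -0.49 and -0.15, Psmd9 between -0.23 and -0.0059 and Psmd5 between -0.38 and -0.026. The 250 bases before the start of Psmg4, the member with the lowest ratio, are shown for comparison with those of Psme2 and likewise hold none of the motifs.
Psmg4, chr13:34162714-34162963, plus strand: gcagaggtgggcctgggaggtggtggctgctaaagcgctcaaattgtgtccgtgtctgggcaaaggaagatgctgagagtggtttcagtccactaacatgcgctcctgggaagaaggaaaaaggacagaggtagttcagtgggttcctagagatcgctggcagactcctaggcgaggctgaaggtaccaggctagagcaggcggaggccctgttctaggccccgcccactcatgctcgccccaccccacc

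Promoter windows of 250 bases before to 50 after the start were listed for 40 of the 48 members (RefSeq, GRCm38.p6), and 4 letter motifs were searched on both strands, without regard to overlap with one another. TGACNNNGC, the core of the antioxidant response element read by Nfe2l1 and Nfe2l2, matched in 6 windows (15.0%), against 12.4% of all 32851 windows and 16.8% of genes past the filter. CCAAT, bound by NF-Y, matched in 14 (35.0%, against 37.4% and 44.5%), and TTCNNNGAA, the STAT motif, in 2 (5%, against 8.30% and 7.77%). The interferon-regulatory factor motif, GAAA followed by GAAA with 2 free bases (NN) between them, matched in 5 (12.5%, against 3.44% and 3.12%). A match describes letters only, and neither a match nor its absence says whether a factor binds there. The 37 members past the filter with a window had a median GC content of 57.2%, beside 60.4% for all genes past the filter with a window.

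The 6 windows with TGACNNNGC are given first, since Nfe2l1 is the factor known for driving proteasome genes together; capitals mark the match, and the TPM ratios of these members ran from -0.24 in Psmb6 to 0.65 in Psme4.
Psmd9, chr5:123228149-123228178, plus strand: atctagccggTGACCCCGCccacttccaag
Psme4, chr11:30771758-30771787, plus strand: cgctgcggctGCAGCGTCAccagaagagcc
Psmb6, chr11:70525338-70525367, plus strand: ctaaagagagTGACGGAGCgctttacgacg
Psmd12, chr11:107479278-107479307, plus strand: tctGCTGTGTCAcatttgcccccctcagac
Psmc6, chr14:45329587-45329616, plus strand: ccagccagtaGCTAAGTCAggcattgctca
Psmb5, chr14:54618023-54618052, minus strand: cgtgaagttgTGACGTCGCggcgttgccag

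The 5 windows with the interferon-regulatory factor motif follow, because the inducible subunits and Psme1 are known interferon targets, with the match in capitals. The matches in Psmg4 and Psme1 lie after the start, beginning at bases 16 and 10 counted from it, and these 2 genes differed in opposite directions (-0.98 and 0.53).
Psmd4, chr3:95042675-95042704, minus strand: ataaccaaccTTTCCATTTCtgtggcgcct
Psmd9, chr5:123228021-123228050, plus strand: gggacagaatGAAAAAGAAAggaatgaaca
Psmb3, chr11:97703261-97703290, plus strand: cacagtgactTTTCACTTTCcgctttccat
Psmg4, chr13:34162969-34162998, plus strand: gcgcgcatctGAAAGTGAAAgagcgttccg
Psme1, chr14:55578493-55578522, plus strand: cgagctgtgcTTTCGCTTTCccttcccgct
Median ratios were -0.09 over the 5 members with the match and 0.12 over the 32 others past the filter with a window, as a description.

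Transcript length moved with the ratio across all genes. The median ratio was -0.19 over genes with transcripts under 1000 bases and 0.22 over those above 2500 bases, and Spearman's rho was 0.38 over 9032 genes, which share both libraries. Members were shorter than most, with a median of 1440 bases against 2740. Over the 45 members rho was 0.21. Members were above all genes of the same length in the 3 shorter classes, with medians of 0.02 against -0.19 under 1000 bases (9 members), -0.07 against -0.15 from 1000 to 1500 (14) and 0.11 against -0.02 from 1500 to 2500 (13). They were below in the class over 2500 bases, at 0.14 against 0.22 (9). Psme1 and Psme2, with short transcripts, had ratios far above the medians of their classes, while Psme4 is the longest member. The part of length in any ratio was not tested beyond removing the trend.

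**Figure D3:**
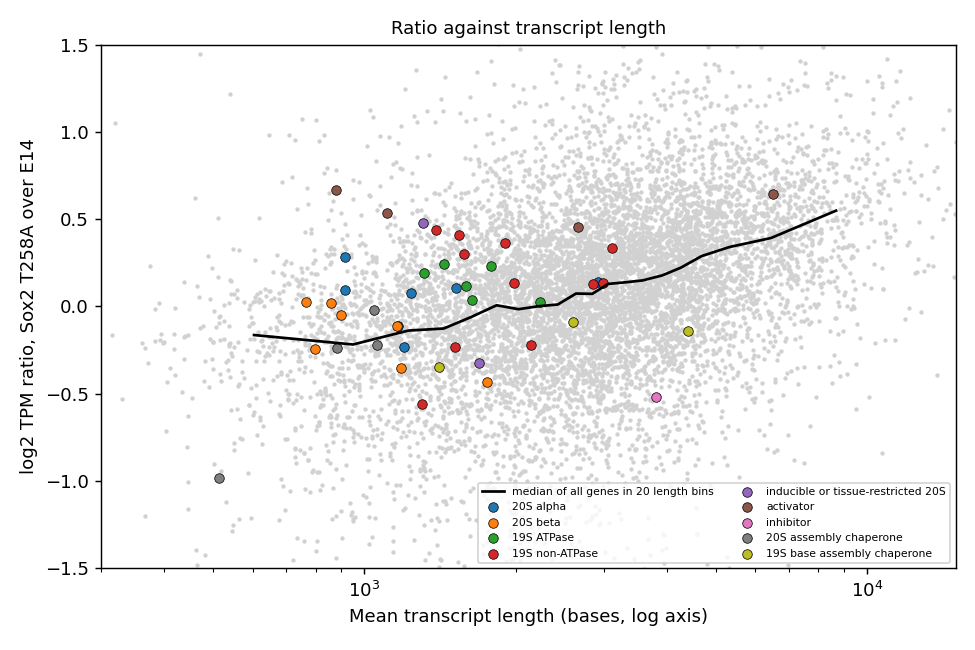
Log2 TPM ratio of Sox2 T258A cells over E14 against mean transcript length in bases (log axis), for all genes past the filter (grey), the median in 20 length bins (line) and proteasome genes (coloured by role); genes beyond 1.5 in either direction are not drawn. Psme1 and Psme2 sit well above the line and Psmg4, Psmd4, Psmb1 and Psmf1 below it. Relative to the median of all genes, each keeps that side with the length trend removed. That removal used a length implied by reads and FPKM, not the length drawn here.

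With the length trend removed, the median over members became 0.22 and exceeded that of all genes by 0.13, and with GC and length trends removed by 0.10. In TPM it was lower by 0.05. FPKM moved the median of all genes by -0.14, the only scaling to move it by more than 0.1, and relative to that shift the members were as in TPM. Over the 7 other scalings, 26 of 45 members kept their sign, 14 of them higher and 12 lower, and 19 turned under at least 1. Scalings that move all genes nearly alike could turn only small ratios, so for larger ones only the trend removals bear on the sign.

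**Figure D4:**
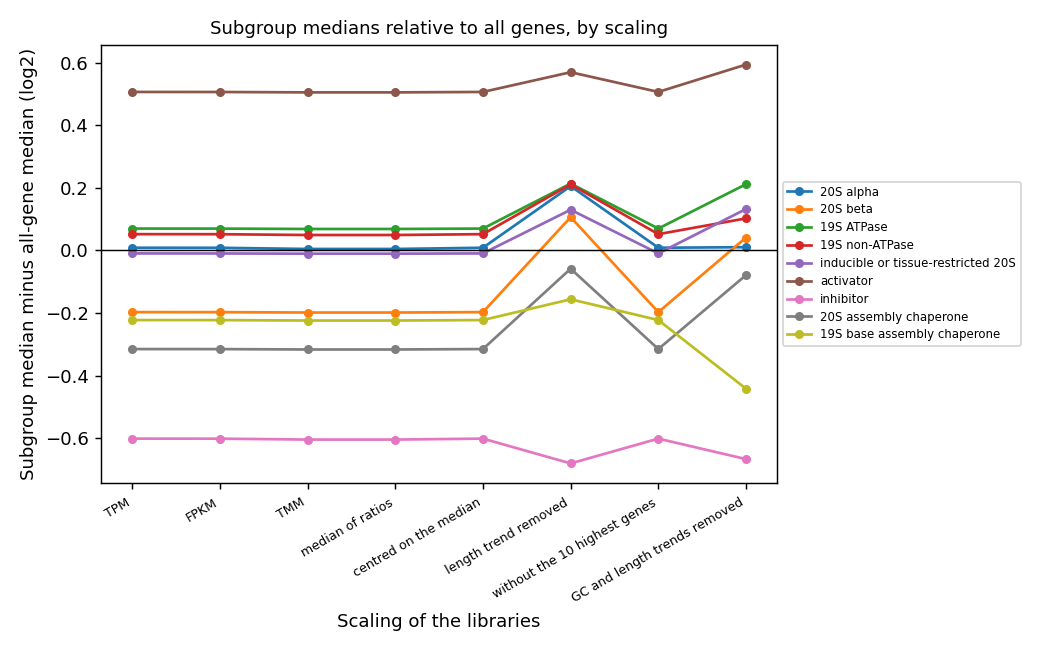
Median log2 ratio of each group of proteasome genes minus the median of all genes, under TPM and 7 other scalings of the libraries. Scalings that move all genes alike leave these differences nearly as in TPM by construction, so only the trend removals could change them. From TPM to removal of the length trend and of GC and length trends, the activators go from 0.51 to 0.57 and 0.59. The inhibitor goes from -0.60 to -0.68 and -0.67, whereas the beta genes turn from -0.20 to 0.11 and 0.04.

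Related genes outside the symbol pattern were read from fixed lists, and these can hold parts of the particle, such as the lid subunit Shfm1. Beside these lists, 42.7% of all genes past the filter were lower, and the median over all genes was 0.08. Of 11 assembly and associated factors, all passed the filter, 8 were higher and 3 lower, none past 2-fold, with a median of 0.27. The highest was AI314180 (Ecpas), an adaptor that tethers proteasomes, at 15.2 and 26.9 TPM (0.83), and the lowest was Shfm1, a small lid subunit, at 392 and 297 TPM (-0.40). Pomp, the maturation factor of the core, was at 306 and 360 TPM (0.24), opposite to the other assembly chaperones.

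Of 9 regulators of proteasome genes, 8 passed the filter, with 5 higher and 3 lower and none past 2-fold (median 0.23). Nfe2l1, the factor that raises proteasome transcription when activity is blocked, was the lowest at 161 and 107 TPM (-0.58), and Nfyc, a subunit of NF-Y, the highest at 41.3 and 64.4 TPM (0.64). The 14 ubiquitin and shuttle genes all passed, 13 higher and 1 lower (median 0.23), where 42.7% of all genes past the filter were lower. Uba6, an alternative ubiquitin-activating enzyme, was past 2-fold at 18.7 and 37.8 TPM (1.02), and the ubiquitin gene Ubb was the lower one at 398 and 334 TPM (-0.25).

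Of 8 peptide loading genes and interferon regulators, 4 passed the filter, 3 higher and 1 lower (median 0.17). Irf1, a transcription factor of the interferon response, was the highest at 15.3 and 46.5 TPM (1.60), and Tap1 the lowest. Under the filter, Nlrc5, an activator of antigen presentation genes, was at 1.06 and 0.488 TPM (-1.12), and Erap1, which trims peptides, at 0.507 and 4.31 TPM (3.09).

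**Figure D5:**
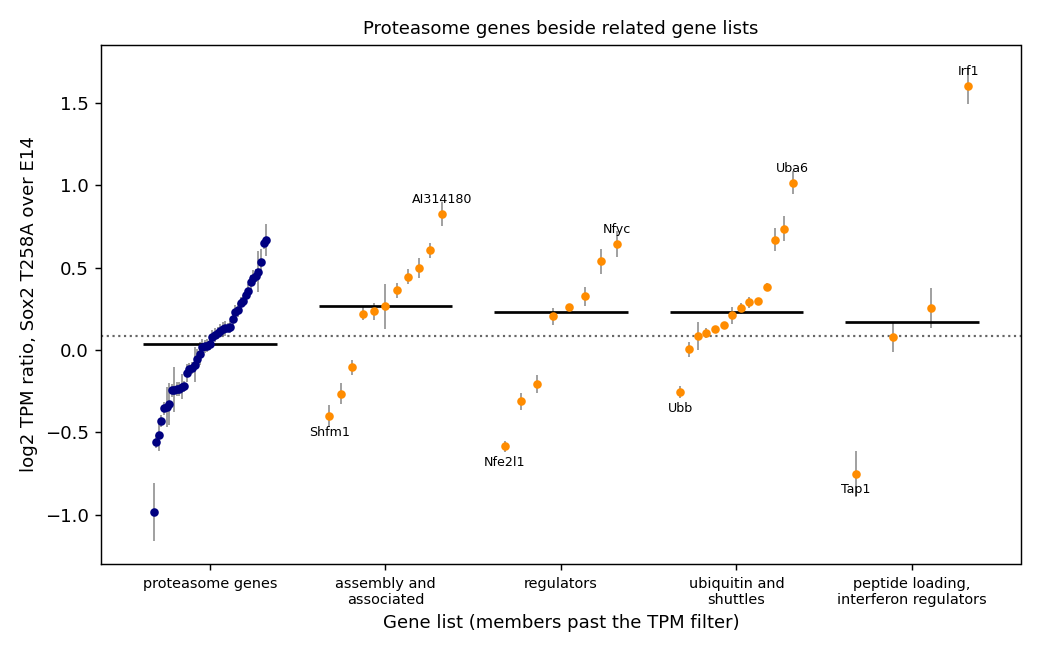
Log2 TPM ratio of Sox2 T258A cells over E14 for each gene past the filter in the proteasome set and 4 related lists, with bars for the 95% counting interval, black lines for list medians and a dotted line for the median of all genes (0.08). The list medians lie between 0.17 and 0.27, above the 0.04 of the proteasome genes, whose points run from -0.98 to 0.67.

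Sequence sharing limits some of these values. Of the 48 members, 15 share at least 1 stretch of 75 bases with another annotated gene and 9 share over 10% of theirs: Psma3, Psma4, Psma5, Psmb3, Psmb5, Psmd2, Psme2, Psme2b and Psmg3. How reads with several placements were counted is not given in the sources used here, so the values of these 9 are uncertain to that extent.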

How the data were processed

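Polyadenylated RNA of both cell lines was sequenced, 1 library each. Per the submitters' processing notes, bcl2fastq 2.20.0, Trimmomatic, HISAT2 2.1.0 and StringTie 2.1.3b were used, with build mm10. The authors deposited 1 gene table with the read count, the FPKM value and the TPM value of each gene. Deposited read counts are unnormalized whole numbers. FPKM, as deposited, is scaled to gene length and library, and the deposited TPM values are a constant multiple of FPKM for every member, 1.94 in E14 and 2.15 in Sox2 T258A cells. Strand and multi-mapped read handling are not given in the sources used here.

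Ratios of TPM were formed without a pseudocount over genes with at least 10 TPM in at least 1 library, with a 2-fold threshold, after the study's methods. Exact 95% Clopper-Pearson intervals came from read counts placed on the TPM scale, and intervals of sums, shares of sums and pair differences from the delta method (Python 3.11.15, scipy 1.17.1). All 48 members had a transcript in GENCODE M21, which gave transcript length and GC content. These were used for the length classes, the length figure and the removal of GC and length trends. Removal of the length trend alone used instead a length implied by the E14 read count divided by the E14 FPKM. The 7 other scalings were FPKM, TMM (edgeR 4.0.16), median of ratios (DESeq2 1.42.0), centring on the median, removal of the length trend in 20 bins, leaving out the 10 highest genes, and removal of GC and length trends, which was chosen after seeing the data. Scripts were tested on simulated data. Full values (reads, TPM, ratio and interval) were given for every member past 1.5-fold, for the highest and lowest member of each group and for the beta pairs. The ends of each list and its genes past 2-fold were given with TPM and ratio, without intervals and mostly without reads. Psmb5 and Psme1 of the members, single marker genes and Pomp of the lists were named with values outside that rule after they were seen. Members and lists were chosen with earlier results of these data known. 1 gene that fits the symbol pattern is not reported here.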

Additional observations from a re-analysis of the deposited data

How the results depend on the processing

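With 1 library per genotype no replicate could be left out, and no paired analysis was possible because each group holds 1 sample. Depth limited Psmb9, Psmb11 and Psme2b most. Pseudocounts of 0.1 and 1 left these counts as they were in TPM. Members more than 2-fold lower numbered 0 in TPM and 1, Psmg4, with FPKM, TMM, median of ratios, centring on the median or a 1.5-fold threshold. They numbered 1, Psmb9, with a filter at 1 TPM, and 3 with no filter, of which Psmb11 and Psme2b rest on 11 reads or fewer. At 1.5-fold, 2 members were higher. Members with lower values numbered 31 with FPKM against 19 in TPM. The members' median of 0.04 became -0.10 with FPKM, -0.0064 with TMM, -0.0041 when centred, 0.22 with the length trend removed, 0.18 with GC and length trends removed and 0.093 over constitutive subunits only. The constitutive sum's log2 ratio of 0.01 became -0.13 with FPKM, -0.037 with TMM, -0.016 with median of ratios, -0.034 when centred, -0.0081 without the 10 highest genes, 0.22 with the length trend removed and 0.14 with GC and length trends removed. The sum of Psmb9, Psmb10, Psme1 and Psme2 went from 0.53 to 0.39 with FPKM, 0.82 with the length trend removed and 0.85 with GC and length trends removed. The scalings differ by construction, and why the trends exist was not tested.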
